A study of Homo sapiens with 10 samples.

Results

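The genes described here encode the proteasome and the factors that assemble or activate it. They were taken by symbol from a list of 46 names, namely PSMA1 to PSMA7, PSMB1 to PSMB10, PSMC1 to PSMC6, 13 PSMD genes, PSME1 to PSME4, PSMF1, PSMG1 to PSMG4 and POMP, and all 46 were found among the 22003 features of the count table. All 46 also passed the filter on low counts, which left 14799 features for testing. By role they fall into 8 subcomplexes or groups.

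The proteasome is the large protease that breaks down proteins tagged with ubiquitin. Its 20S core is a barrel of stacked rings: alpha subunits (PSMA genes) form the outer rings that gate the entrance, and beta subunits (PSMB genes) form the inner rings that carry the proteolytic sites. The 19S cap binds ubiquitin chains and feeds the substrate in, with a ring of ATPases (PSMC genes) in its base and non-ATPase subunits (PSMD genes) in its base and lid. Cells usually control the subunit genes as a set, and the transcription factor NRF1, encoded by NFE2L1, raises their transcription when proteasome activity falls. In keratinocytes and other cells interferon replaces the catalytic beta subunits by those of the immunoproteasome, which shapes the peptides shown on MHC class I.

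RNA was sequenced from HaCaT, an established human keratinocyte line that the labels call wild type and assign to mucosa. Cells received vehicle or LBP, a polysaccharide-glycoprotein of the goji plant Lycium barbarum, for 24 h. They were then left without radiation or given 12 Gy, and RNA was taken at 3 h after irradiation. The labels give no dose of LBP. The groups were vehicle (2 libraries), LBP (2 libraries), irradiated vehicle (3 libraries) and irradiated LBP (3 libraries), and all came from the same cell line in the same medium. The labels number repeat experiments within each group but do not say that they were separate cultures, so the p-values reflect the spread among these libraries alone, which may be technical.

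Depth ran from 31830506 to 62986831 counts per library, and all 10 keratinocyte markers of the list used averaged at least 1 CPM (counts scaled to a common library size) in every group. Their summed level was 13300 to 14000 CPM in vehicle, 16200 to 16600 in LBP, 12900 to 14700 in irradiated vehicle and 14600 to 15800 in irradiated LBP libraries. Keratins and other genes of simple or mucosal epithelium were also present, 8 of 8, and summed to 7660 to 8620 CPM in irradiated vehicle and 6730 to 7560 in irradiated LBP libraries. Between these groups the list had no common direction. By group mean KRT8, KRT18, KRT19, KRT7 and EPCAM were lower with LBP, and KRT4, KRT13 and MUC1 were higher. Markers of leukocytes, fibroblasts, endothelium and melanocytes summed to at most 7.06 CPM in any library, with DCN, PECAM1, TEK and TYR at 0 in all 10. The part of the keratinocyte and epithelial shifts in the results for the proteasome genes was not tested.

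A library of the LBP group stood apart for these genes. LBP replicate 2 had the highest value of the 10 libraries for 26 of the 46 genes and lay above LBP replicate 1 for 42 of 46 (91.3%), where the share over all features tested was 51.2%. Vehicle replicate 2 lay above vehicle replicate 1 for 39 of 46 (84.8%), against 49.7% of all features. At the other end, irradiated LBP replicate 3 was the lowest of the 10 libraries for 19 genes and irradiated LBP replicate 1 for 15. Comparisons that use the non-irradiated libraries therefore rest on pairs that differ within themselves in most of these genes. Those that use the LBP pair are given with and without LBP replicate 2.

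The promoters show what is shared by sequence. The antioxidant response element, at which NRF1 and NRF2 bind with small MAF proteins, has the core TGACNNNGC, and CCAAT is the box bound by NF-Y. Both were searched on both strands in the RefSeq promoter table for GRCh38.p14, from 250 bases before to 50 after each start, and 40 of the 46 genes matched with 49 promoters. The core of the response element was found in 28.6% of those 49 promoters and in 13.3% of all 35116 promoters, and CCAAT in 38.8% against 34.6%. By gene, 14 of 40 held the core, 19 held CCAAT and 13 held neither, and no match of one motif overlapped the other. The stretches below lie upstream of RefSeq starts. Those of genes from the alpha ring, the beta ring and the lid hold the core on the gene's own strand. The last is from PSMA2, whose promoter holds only CCAAT. The annotation GENCODE v29 starts PSMA4 at chr15:78540405, so the PSMA4 stretch lies inside the gene there. It starts PSMD3 at chr17:39980797, within the PSMD3 stretch. Capitals mark the motif, which starts 126 bases before the start of PSMA4 (chr15:78540630-78540698, plus strand), 104 before PSMB3 (chr17:38752607-38752675, plus), 37 before PSMD3 (chr17:39980740-39980806, plus), 165 before PSMD12 (chr17:67366704-67366772, minus) and 84 before PSMA2 (chr7:42932224-42932288, minus).
PSMA4: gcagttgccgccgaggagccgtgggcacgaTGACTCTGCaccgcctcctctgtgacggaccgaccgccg
PSMB3: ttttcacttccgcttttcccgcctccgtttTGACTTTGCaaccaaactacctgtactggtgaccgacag
PSMD3: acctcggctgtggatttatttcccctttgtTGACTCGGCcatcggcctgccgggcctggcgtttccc
PSMD12: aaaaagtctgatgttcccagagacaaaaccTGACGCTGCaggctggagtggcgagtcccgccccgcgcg
PSMA2: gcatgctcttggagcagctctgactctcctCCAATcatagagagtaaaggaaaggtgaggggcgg
A match describes letters in this window and does not show that a factor binds there.

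Levels are compared between genes on the deposited FPKM scale (by name, fragments scaled by gene length and library size). The means and SDs here run over the 10 libraries. For some genes FPKM did not follow the counts by a fixed length. PSMC2 had 187 CPM and 44 FPKM in vehicle replicate 2, but 179 CPM and 59.3 FPKM in irradiated LBP replicate 2. How length was set is not given in the sources used here. In the alpha ring PSMA7 stood highest at 354 ± 20 FPKM and PSMA5 lowest at 37 ± 2.5. PSMA1, PSMA6, PSMA3, PSMA2 and PSMA4 followed PSMA7 in that order, from 218 ± 21 down to 143 ± 18 FPKM, and neighbours among these 5 overlapped in range. PSMA7 lay above and PSMA5 below the range of the nearest gene. The constitutive beta ring ran from PSMB3 at 387 ± 33 FPKM to PSMB2 at 58.3 ± 5.6, with the 5 genes between them within 206 to 308 FPKM and overlapping their neighbours down to PSMB5.

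The 19S genes covered a similar range. Among the ATPases PSMC3 was highest at 182 ± 13 FPKM and PSMC1 lowest at 53.5 ± 5.6, and PSMC6, PSMC4, PSMC2 and PSMC1 overlapped in turn. Among the non-ATPase subunits PSMD2, the base scaffold where ubiquitin shuttles dock, stood at 247 ± 24 FPKM and overlapped PSMD3, a lid subunit, at 238 ± 18. PSMD12, also a lid subunit, was lowest at 30.5 ± 3.1 FPKM, below PSMD6 in all 10 libraries. Of the chaperones of base assembly, PSMD10 stood above PSMD12 at 37.8 ± 2.6 FPKM, and PSMD9 below it at 14.4 ± 1.7.

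Immunoproteasome subunits had lower means than the constitutive beta ring, PSMB8 at 49.9 ± 4.9, PSMB9 at 49.3 ± 4.4 and PSMB10 at 35 ± 3.3 FPKM. PSMB8 and PSMB9 could not be separated by range, and both lay above PSMB10 in all 10 libraries. The interferon-inducible activator subunits PSME2 and PSME1 stood at 214 ± 16 and 152 ± 8.4 FPKM, the nuclear activator PSME3 at 78 ± 6, the inhibitor PSMF1 at 36.6 ± 2.1 and the activator PSME4 at 21.6 ± 1.7, with no overlap between neighbours. Of the 20S assembly factors, the maturation protein POMP was highest at 130 ± 12 FPKM and the chaperone PSMG4 lowest at 16.2 ± 2.3.

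**Figure D1:**
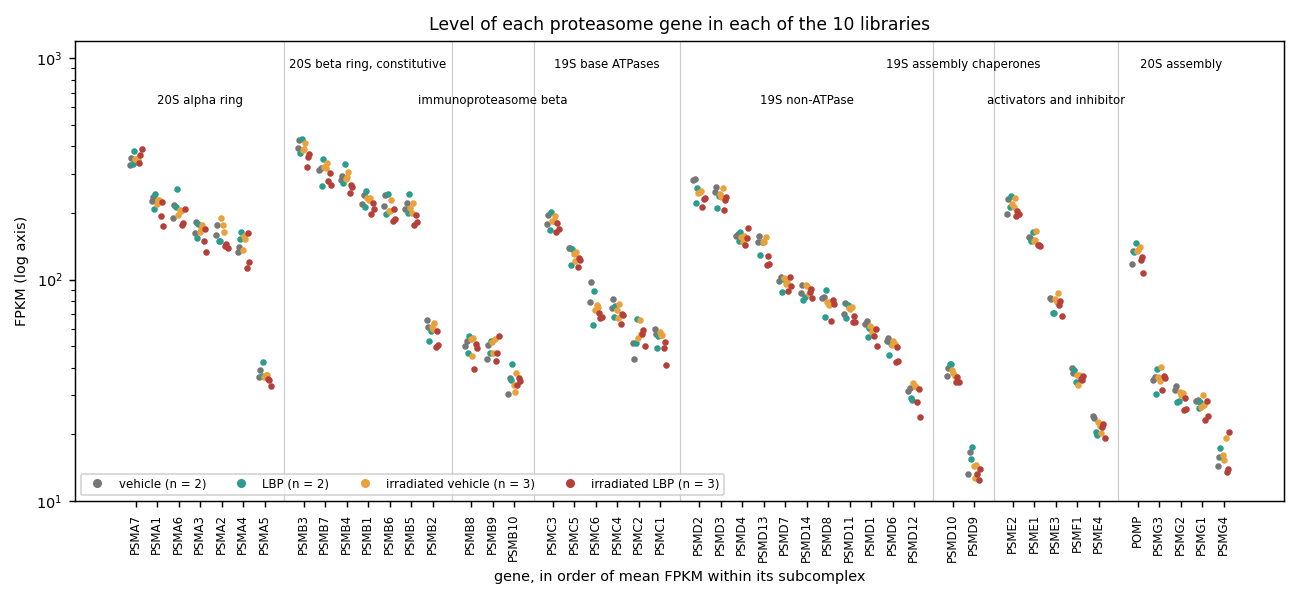
FPKM on a log axis of each of the 46 proteasome genes in each of the 10 libraries, coloured by group, with genes ordered by mean within each subcomplex. The spread between libraries is small beside the differences between genes, such as PSMA7 at 354 and PSMA5 at 37 FPKM.

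Across the 10 libraries the genes varied about as much as other features of their abundance. Their median coefficient of variation in CPM was 8.02%, against 10.9% for all features tested and 8.08% for the 7735 features at least as abundant as the lowest of the 46. PSMD14, the lid deubiquitinase, varied least at 4.38%, and PSMA6 most at 12.9%. Together the 46 genes took 0.896% to 1.04% of the counts of a library. Their summed level was 9989 and 10450 CPM in vehicle, 9474 and 10860 in LBP, 9848, 9991 and 10260 in irradiated vehicle and 9028, 9331 and 9072 in irradiated LBP libraries. All 3 irradiated LBP libraries lay below the other 7, and the LBP pair spanned almost the whole range above them. In RNA from whole cultures, fewer cells of a kind and less RNA per cell cannot be told apart.

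**Figure D2:**
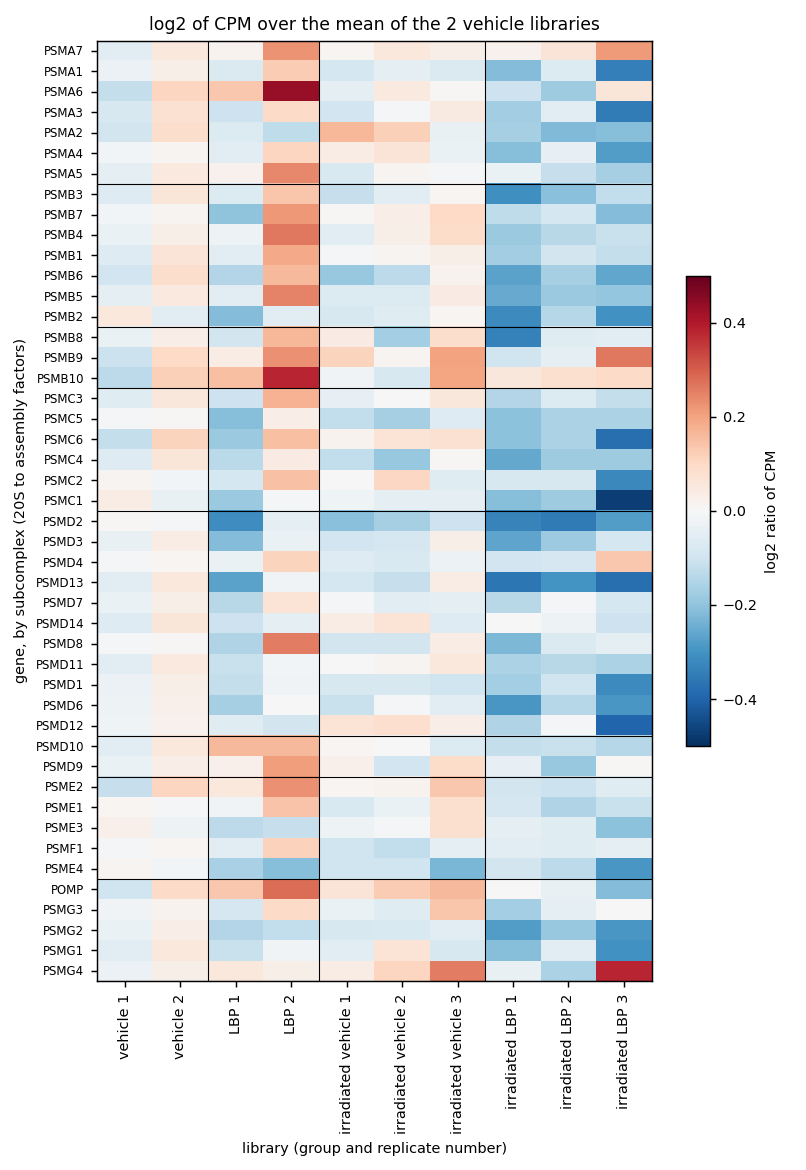
Colour shows the log2 ratio of CPM in each library (columns, by group and replicate) to the mean of the 2 vehicle libraries, for the 46 genes (rows, by subcomplex). LBP replicate 2 is mostly red, with the highest value for 26 genes, and the irradiated LBP libraries are mostly blue.

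The first comparison asked how LBP pretreatment changed these genes in irradiated cells. Most lay slightly lower with LBP: 42 of the 46 log2 fold changes were below 0, with a median of -0.13 and a range from -0.30 (PSMC6) to 0.07 (PSMA7). Over all features tested 48.9% were below 0 with a median of 0.01, and over the 7735 abundant features 54.3% were. PSMA2 and PSMD13 fell and none rose, which is 4.35% of the genes, close to the 4.36% of all features called at an adjusted p under 0.05 in edgeR's quasi-likelihood test (1.57% lower). DESeq2 called 6 genes, all lower (PSMA2, PSMB2, PSMC1, PSMC6, PSMD11 and PSMD13). It called 1236 of the 12863 features to which it gave an adjusted p (9.61%), 542 of them lower. For 24 genes every irradiated LBP library lay below every irradiated vehicle library, and for none above. Over all features 27.5% did not overlap, 13.6% with the LBP libraries lower, and the LBP libraries were lower for 17.8% of the abundant features.

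An unadjusted p under 0.05 was reached by 14 of the 46 (30.4%), against 21.7% of all features and 24.8% of the 7735 abundant ones. The 95% intervals of the 46 log2 fold changes together spanned -0.50 to 0.24, so that changes beyond 0.707-fold or 1.18-fold lay outside every interval. With each library left out in turn, 40 to 43 genes lay below 0 and the median stayed between -0.15 and -0.11.

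Among the 20S alpha genes PSMA2 was the one called. It encodes a subunit of the gating ring and lies on the minus strand at chr7:42916857-42932223 of GRCh38, where GENCODE v29 has it overlap AC010132.3 on its own strand and MRPL32 on the other. Its CPM was 248 and 281 in vehicle, 252 and 242 in LBP, 297, 287 and 258 in irradiated vehicle and 236, 227 and 228 in irradiated LBP libraries. The irradiated LBP libraries lay below all 7 others, and 2 of the 3 irradiated vehicle libraries lay above both vehicle libraries. Means were 281 ± 21 and 231 ± 4.9 CPM (SD, n = 3 each), a log2 fold change of -0.28 ± 0.07 (SE) with an edgeR adjusted p of 0.045. That call was lost in 9 of 18 alternative settings, among them leaving out LBP replicate 1 or 2, irradiated vehicle replicate 1 or 2, or any irradiated LBP replicate, with adjusted p over all settings from 0.0042 to 0.16 and log2 fold changes from -0.34 to -0.24.

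MRPL32, a mitochondrial ribosomal protein gene, had a mean of 133 CPM in irradiated vehicle and 108 in irradiated LBP libraries (log2 fold change -0.30 ± 0.07, edgeR adjusted p 0.025). Whether counting used strand is not given in the sources used here, so reads from the overlap of PSMA2 and MRPL32 cannot be told apart.

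The other alpha genes had log2 fold changes from -0.20 (PSMA4) to 0.07 (PSMA7), 5 of 6 below 0. PSMA4, whose promoter is shown above, had 320, 326 and 305 CPM in irradiated vehicle and 269, 303 and 257 in irradiated LBP libraries, without overlap (edgeR adjusted p 0.13). On the FPKM scale its values overlapped, at 136, 158 and 152 against 113, 163 and 120, so the separation depends on the table used. PSMA7, the most abundant alpha gene, lay clearly higher in 1 library alone, irradiated LBP replicate 3, with 376, 387 and 381 CPM against 379, 390 and 432. PSMA5, the least abundant by FPKM, had 153, 163 and 161 CPM against 158, 149 and 144.

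In the constitutive beta ring all 7 log2 fold changes lay between -0.21 (PSMB2) and -0.13 (PSMB6), with a median of -0.17. For 6 of 7 the groups did not overlap, where 27.5% of all features did not (13.6% with LBP lower, and 17.8% of the abundant features). None was called. PSMB5 carries the chymotrypsin-like site and had 241, 241 and 260 CPM in irradiated vehicle and 212, 222 and 221 in irradiated LBP libraries (log2 fold change -0.18 ± 0.08, edgeR adjusted p 0.20). PSMB7, with the trypsin-like site, had 354, 361 and 378 against 323, 332 and 304 CPM, also without overlap. PSMB6, with the caspase-like site, had 188, 196 and 217 against 178, 191 and 179 CPM, which overlapped. The non-catalytic PSMB2 had 303, 307 and 323 against 257, 290 and 260 CPM (-0.21 ± 0.07, edgeR adjusted p 0.11), and PSMB3 325, 339 and 355 against 285, 305 and 324 CPM.

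The immunoproteasome genes gave no common direction, with log2 fold changes of -0.14 (PSMB8), -0.06 (PSMB9) and 0.04 (PSMB10). PSMB8 had 69.7, 60.3 and 72.1 CPM in irradiated vehicle and 53.6, 65.1 and 65.4 in irradiated LBP libraries, which overlapped. PSMB9 had 58.9, 55 and 62.7 CPM in irradiated vehicle and 50.9, 52.8 and 65.5 in irradiated LBP libraries. Its highest value came from irradiated LBP replicate 3, the library in which IRF1, an interferon-responsive activator of these genes, reached 144 CPM, against 50.2 to 73.9 in the other 9. The part of IRF1 in that value was not tested.

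The share of immunoproteasome to constitutive mRNA was read as the FPKM ratio of each catalytic pair. PSMB8 to PSMB5 was 23.8 ± 0.071% in vehicle, 23 ± 0.49% in LBP, 24.3 ± 1.5% in irradiated vehicle and 25.2 ± 2.4% in irradiated LBP libraries (SD). PSMB9 to PSMB6 was 20.7 ± 0.28%, 22.5 ± 1.3%, 23.9 ± 1.4% and 25.1 ± 4% in the same order. PSMB10 to PSMB7 was 9.68% and 11.3% in vehicle, 13.4% and 11.8% in LBP, 10.4%, 9.73% and 11.3% in irradiated vehicle and 12%, 11.8% and 13% in irradiated LBP libraries. For this last pair the LBP libraries lay above the vehicle libraries with and without radiation, whereas for the PSMB8 pair they overlapped in irradiated cells and lay slightly lower without radiation. These ratios are descriptions and were given no test.

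All 6 ATPases of the 19S base had log2 fold changes below 0, with a median of -0.14. For 4 of 6 the groups did not overlap, where 27.5% of all features did not (13.6% with LBP lower, and 17.8% of the abundant features). PSMC6 had the lowest value of the 46 genes, with 167, 173 and 174 CPM in irradiated vehicle and 143, 148 and 127 in irradiated LBP libraries (-0.30 ± 0.09, edgeR adjusted p 0.091). On the FPKM scale its groups lay closer, at 72.9, 76.8 and 75 against 70.9, 67.4 and 67.9. Over the alternative settings its log2 fold change ran from -0.34 to -0.12, so its size depends on the scale used. PSMC1, the least abundant ATPase by FPKM, had 284, 280 and 279 against 249, 255 and 208 CPM (-0.24 ± 0.08, edgeR adjusted p 0.10). For both PSMC6 and PSMC1 the lowest library by CPM was irradiated LBP replicate 3. PSMC3, the most abundant, had 311, 320 and 333 against 289, 305 and 295 CPM, and PSMC4 139, 133 and 152 against 127, 134 and 134 CPM.

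Of the 11 non-ATPase genes 10 lay below 0, with a median of -0.13, and PSMD13 fell. PSMD13 encodes a lid subunit and lies at chr11:236546-252984 on the plus strand, overlapping SIRT3 on the other strand. Its CPM was 266 and 287 in vehicle, 230 and 273 in LBP, 260, 255 and 284 in irradiated vehicle and 215, 225 and 213 in irradiated LBP libraries. The irradiated LBP libraries lay below all 7 others. Means were 267 ± 16 and 217 ± 6.4 CPM (SD, n = 3 each), a log2 fold change of -0.29 ± 0.07 with an edgeR adjusted p of 0.048. That call was lost in 9 of 18 settings, 8 of them leaving out a vehicle, irradiated vehicle or irradiated LBP replicate, with adjusted p from 0.0043 to 0.16 and log2 fold changes from -0.33 to -0.24. SIRT3, the mitochondrial deacetylase gene on the opposite strand, had 15.5 and 16.7 CPM (0.11 ± 0.08, edgeR adjusted p 0.48).

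Averaged over both radiation states, PSMD13 also fell with LBP (-0.22 ± 0.06, edgeR adjusted p 0.048). It was the only one of the 46 called there, 2.17%, against 6.93% of all features (2.93% lower), and 11 reached an unadjusted p under 0.05 (23.3% of all features). DESeq2 called 4, all lower, adding PSMA2, PSMB2 and PSMD2. It called 1455 of its 13230 features (11%), 693 of them lower. Of 46 values 34 were below 0 (48.3% of all features, 51% of the abundant ones), with a median of -0.06. Without LBP replicate 2 the count was 41 and the median -0.12. Without LBP replicate 1 they were 25 and -0.01. The PSMD13 call was lost when any library other than LBP replicate 2 was left out, with adjusted p from 0.052 to 0.16.

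PSMD2, the most abundant gene of the cap, had 887 and 880 CPM in vehicle, 713 and 853 in LBP, 765, 788 and 823 in irradiated vehicle and 700, 691 and 728 in irradiated LBP libraries. Both vehicle libraries lay above all 8 others, and none of the 4 comparisons between groups called it (edgeR adjusted p 0.20 with LBP in irradiated cells). PSMD12, which has a response element core in its promoter, had 163, 165 and 159 CPM in irradiated vehicle and 140, 155 and 118 in irradiated LBP libraries (-0.24 ± 0.08, edgeR adjusted p 0.12). PSMD4, the ubiquitin receptor, was the non-ATPase gene above 0, at 0.04 ± 0.07.

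The base chaperones PSMD10 and PSMD9 had log2 fold changes of -0.10 and -0.08. PSMD9 had 41.8, 38.4 and 43.7 CPM in irradiated vehicle and 39.9, 36 and 41.2 in irradiated LBP libraries, with overlap. The activators PSME1 to PSME4 lay between -0.14 and -0.03 and the inhibitor PSMF1 at 0.04. PSME2 had 203, 204 and 221 CPM in irradiated vehicle and 189, 187 and 193 in irradiated LBP libraries, and PSME3 281, 284 and 302 against 277, 274 and 248, both without overlap and neither called (edgeR adjusted p 0.28 and 0.29). PSME1 had 164, 169 and 183 against 163, 156 and 160 CPM, also without overlap (edgeR adjusted p 0.36). All 5 assembly factors lay below 0, with a median of -0.16, led by POMP with 202, 211 and 216 against 193, 188 and 166 CPM (-0.20 ± 0.08, edgeR adjusted p 0.15). PSMG2 had 37.2, 37.3 and 37.8 against 32.4, 34.5 and 32.1 CPM (-0.18 ± 0.06, edgeR adjusted p 0.11). PSMG4, the least abundant, had 18.1, 19 and 21.1 against 17.2, 15.8 and 23 CPM.

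By promoter, the 14 genes with a response element core had a median log2 fold change of -0.12 with LBP in irradiated cells, and the 26 matched genes without it -0.16. All 14 and 24 of the 26 were below 0, so that the genes with and without the motif covered nearly the same values.

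**Figure D3:**
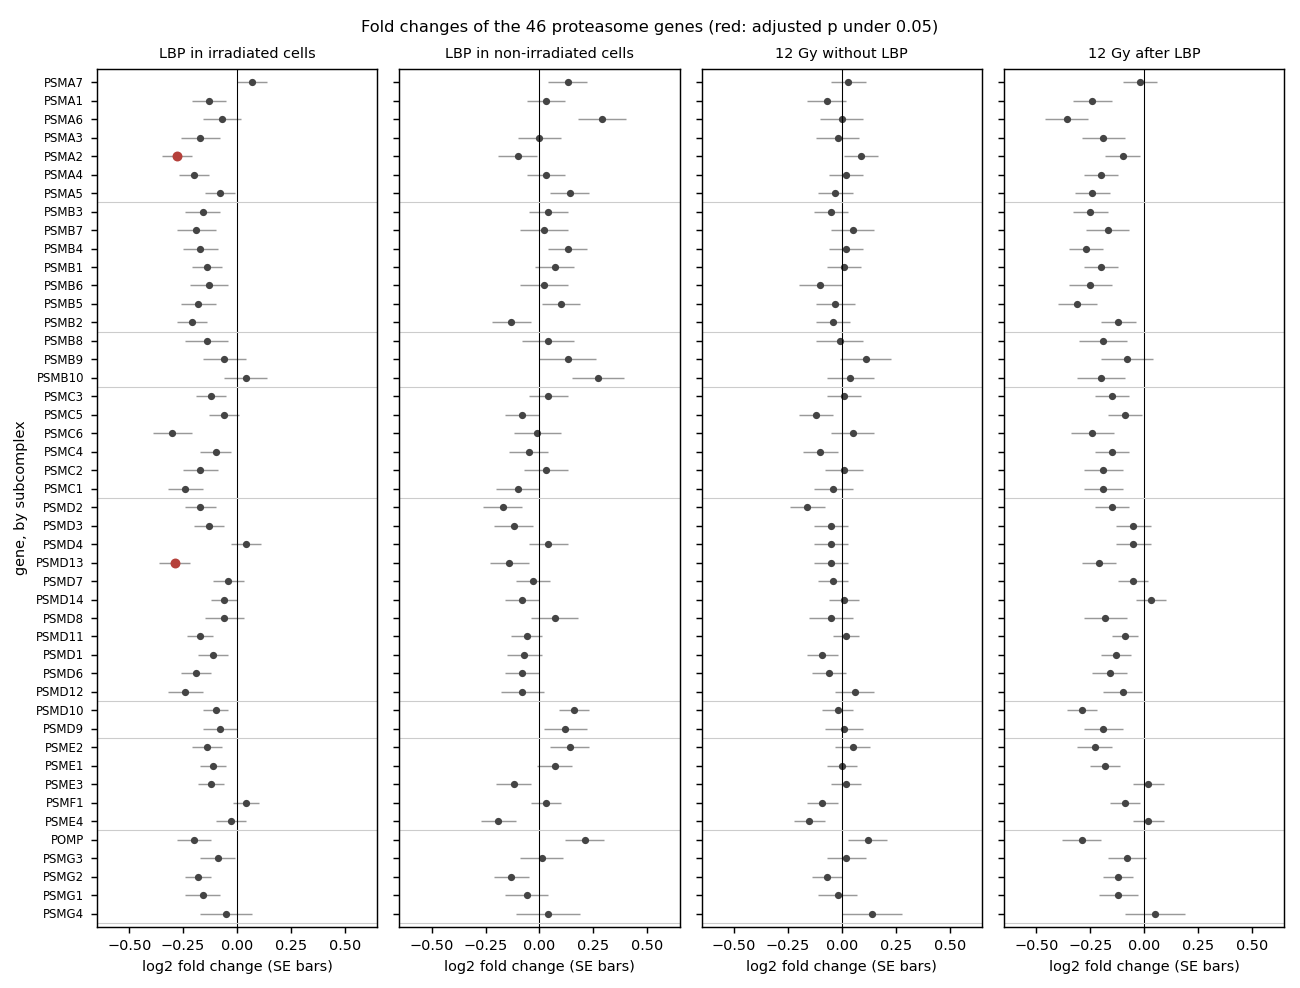
Log2 fold changes with SE bars of the 46 genes (rows, by subcomplex) in the 4 comparisons between groups, with genes called at an adjusted p under 0.05 in red. PSMA2 and PSMD13 are the called genes, both in the panel for LBP in irradiated cells, where 42 of 46 points lie below 0.

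Without radiation, LBP gave no such direction. None of the 46 genes was called (0.804% of all features), 5 reached an unadjusted p under 0.05 (13.5% of all features), and DESeq2 also called none (2.96% of its features). There were 26 log2 fold changes above 0 and 20 below, with a median of 0.03 and a range from -0.19 (PSME4) to 0.29 (PSMA6). Groups did not overlap for 10 of the 46 genes, against 45.5% of all features. The intervals together spanned -0.37 to 0.54.

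The signs here depended on the library. Without LBP replicate 2 the median was -0.09 with 36 genes below 0, and without LBP replicate 1 it was 0.10 with 15 below 0. Leaving out vehicle replicate 1 gave 29 below 0 and a median of -0.02.

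PSMA6, an alpha ring gene, had 189 and 221 CPM in vehicle and 225 and 277 in LBP libraries (0.29 ± 0.11, edgeR adjusted p 0.28), and 0.13 without LBP replicate 2. POMP had 180 and 206 against 212 and 234 CPM (0.21 ± 0.09, edgeR adjusted p 0.36), and 0.14 without that library. PSMB10 had 33.7 and 40.1 against 40.9 and 48.1 CPM (0.27 ± 0.12, edgeR adjusted p 0.34). In all 3 the LBP pair lay above the vehicle pair, by a margin smaller than the gap within a pair. PSMD10, by contrast, had 60.8 and 65.5 CPM in vehicle and 70.6 in both LBP libraries (0.16 ± 0.07, edgeR adjusted p 0.37). PSME4, the activator linked to acetylated histones, had 199 and 195 in vehicle against 176 and 170 CPM (-0.19 ± 0.08, edgeR adjusted p 0.33).

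Radiation alone gave the smallest differences of the 4 comparisons between groups. With 12 Gy and vehicle no gene was called (0.439% of all features), none reached an unadjusted p under 0.05 (6.91% of all features), and DESeq2 called none (0.728%). Groups did not overlap for 10 genes, against 27.6% of all features. The log2 fold changes ran from -0.16 (PSMD2) to 0.14 (PSMG4) with a median of -0.02 and 25 below 0. The intervals together spanned -0.33 to 0.44, which covers 0.796-fold to 1.36-fold. The smallest adjusted p was 0.75. Leaving out vehicle replicate 1 put 36 below 0 and leaving out vehicle replicate 2 put 15 below 0.

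After LBP pretreatment, 12 Gy went with lower values for most genes, though edgeR called none (0.142% of all features) and its smallest adjusted p was 0.18. Of 46 log2 fold changes 42 were below 0 (49.5% of all features, 58.5% of the abundant ones), with a median of -0.16. An unadjusted p under 0.05 was reached by 15 (32.6%), against 13.5% of all features and 17.3% of the abundant ones. For 18 genes the irradiated LBP libraries lay wholly below the LBP libraries. That held for 14% of all features and 19.3% of the abundant ones, and 28% of all features did not overlap in either direction. DESeq2 called 3 genes, PSMA6, PSMB5 and PSMD10, all lower. It called 193 of its 11397 features (1.69%), 113 of them lower.

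This comparison shares its irradiated LBP libraries with the first and its LBP libraries with the comparison without radiation, so it is not separate evidence. PSMA6 had 225 and 277 CPM in LBP and 191, 181 and 214 in irradiated LBP libraries (-0.36 ± 0.10, edgeR adjusted p 0.24), and -0.21 without LBP replicate 2. PSMB5 had 243 and 300 against 212, 222 and 221 CPM (-0.31 ± 0.09, edgeR adjusted p 0.24), and -0.16 without that library. PSMD10 had 70.6 in both LBP libraries against 58.2, 58.4 and 57.2 CPM (-0.29 ± 0.07, edgeR adjusted p 0.18), and -0.29 without it. Over the 46 genes the median without LBP replicate 2 was -0.08 with 34 below 0, and without LBP replicate 1 it was -0.27.

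Whether LBP acted differently with radiation was tested as the interaction, the LBP effect in irradiated minus that in non-irradiated cells. No gene was called (0.0135% of all features), and DESeq2 called none (0.121%). An unadjusted p under 0.05 was reached by 6, 13% of the 46, against 8.2% of all features and 10.5% of the abundant ones. POMP had the lowest value, -0.41 ± 0.12 (edgeR adjusted p 0.57), followed by PSMA6 at -0.37 ± 0.14. Of 46 values 40 were below 0 (49.1% of all features, 55.4% of the abundant ones), with a median of -0.16. Without LBP replicate 2 the count was 31 and the median -0.06. The difference between the radiation states was therefore not shown for any of these genes. Averaged over pretreatments, 12 Gy also gave no call by edgeR (0.561% of all features) or DESeq2 (1.8%). In that average 10 genes had an unadjusted p under 0.05 (21.7%, against 11.5% of all features and 13.8% of the abundant ones). There 41 of 46 values were below 0 (49.7% of all features, 58.1% of the abundant ones), with a median of -0.09. Without LBP replicate 2 the median was -0.04 with 38 below 0, and without LBP replicate 1, vehicle replicate 1 or vehicle replicate 2 it was -0.13, -0.11 and -0.07.

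Genes that control or serve the proteasome were followed in 5 lists of 55 genes. With LBP in irradiated cells, where 4.36% of all features were called, 1 of 8 tested proteasome genes outside the 46 rose and none fell, and PSMA8 and PSMB11, of testis and thymus proteasomes, were not tested for low counts. In the NRF1 and NRF2 route 1 of 14 rose and 1 fell. Among ubiquitin shuttles and proteasome-bound enzymes 1 of 13 rose, and edgeR called none of 6 ubiquitin genes and activating enzymes or of 12 peptide-loading genes (0 and 1 at an unadjusted p under 0.05). Of the 53 tested, edgeR called none with 12 Gy without LBP (2 at an unadjusted p under 0.05, where 6.91% of all features reached it), with 12 Gy after LBP (9, and 13.5% of all features) or in the interaction (6, and 8.2% of all features).

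NFE2L1, the NRF1 gene, had 271 and 241 CPM in vehicle, 280 and 272 in LBP, 251, 245 and 266 in irradiated vehicle and 314, 325 and 363 in irradiated LBP libraries. All 3 irradiated LBP libraries lay above the other 7. It rose with LBP in irradiated cells, from 254 ± 11 to 334 ± 26 CPM (SD, n = 3; 0.39 ± 0.07, edgeR adjusted p 0.013). That call was lost without irradiated vehicle replicate 1 or 2, at adjusted p 0.062 and 0.072. Without radiation its log2 fold change was 0.11 ± 0.09 (edgeR adjusted p 0.62). Averaged over radiation states it also rose (0.25 ± 0.06, edgeR adjusted p 0.023), a call lost in 7 of 17 settings. With 12 Gy after LBP, DESeq2 called it at an adjusted p of 0.049 (0.28), which edgeR did not. The same 3 libraries that were highest for NFE2L1 were the lowest for the summed proteasome genes.

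NFE2L3, the related factor NRF3, went the other way. It had 121 and 124 CPM in vehicle, 77.7 and 92.2 in LBP, 119, 125 and 131 in irradiated vehicle and 90, 99.9 and 98 in irradiated LBP libraries, so that all 5 LBP libraries lay below all 5 vehicle libraries. It fell with LBP in irradiated (-0.38 ± 0.07, edgeR adjusted p 0.017) and in non-irradiated cells (-0.53 ± 0.09, edgeR adjusted p 0.018). The first call was lost without irradiated vehicle replicate 2 or 3 (adjusted p 0.064 and 0.068), and the second without vehicle replicate 1 or 2 or LBP replicate 1 (0.12, 0.13 and 0.16). Averaged over radiation states NFE2L3 fell by 0.46 ± 0.06 on the log2 scale (edgeR adjusted p 0.00091), a call kept in all 17 settings. NFE2L2, the NRF2 gene, had a log2 fold change of 0.20 ± 0.07 in irradiated cells (edgeR adjusted p 0.14). MAFG, a small MAF partner, rose with LBP averaged over radiation states (0.42 ± 0.09, edgeR adjusted p 0.020), as did KEAP1, the adaptor that marks NRF2 for degradation (0.25 ± 0.05, edgeR adjusted p 0.015). The MAFG call was lost without any 1 of the vehicle and LBP replicates or irradiated vehicle replicate 2 (adjusted p 0.05 to 0.11), and that of KEAP1 without vehicle replicate 1 or LBP replicate 2 (0.097 and 0.057).

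AKIRIN2, needed for import of proteasomes into the nucleus, had 46.9 and 47.4 CPM in vehicle, 58.5 and 58.7 in LBP, 41.4, 40.9 and 43.1 in irradiated vehicle and 61.6, 52.1 and 60.4 in irradiated LBP libraries. The LBP libraries lay above all vehicle libraries in both radiation states. It rose in irradiated cells (0.47 ± 0.07, edgeR adjusted p 0.0051) and kept that call in all 18 settings. Without radiation it was 0.31 ± 0.09 (edgeR adjusted p 0.15). SEM1, a small lid subunit, had 57 and 61.6 CPM in vehicle and 74.8 and 77.4 in LBP libraries (0.36 ± 0.09, edgeR adjusted p 0.11), and in irradiated cells -0.03 ± 0.07.

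SQSTM1, the autophagy receptor that also carries ubiquitinated cargo, rose with LBP in both radiation states. It had 455 and 483 CPM in vehicle, 684 and 823 in LBP, 441, 439 and 507 in irradiated vehicle and 714, 612 and 694 in irradiated LBP libraries, and all 5 LBP libraries lay above all 5 vehicle libraries. In irradiated cells the log2 fold change was 0.54 ± 0.09 (edgeR adjusted p 0.0072), a call kept in all 18 settings. Without radiation it was 0.68 ± 0.11 (edgeR adjusted p 0.013), a call lost without vehicle replicate 1 or 2 or LBP replicate 2 (adjusted p 0.17, 0.082 and 0.12). Of the peptide-loading genes, 11 of 12 lay above 0 with LBP in irradiated cells with a median of 0.07, and 1 reached an unadjusted p under 0.05. Over all features tested 48.9% lay below 0 there, with a median of 0.01.

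**Figure D4:**
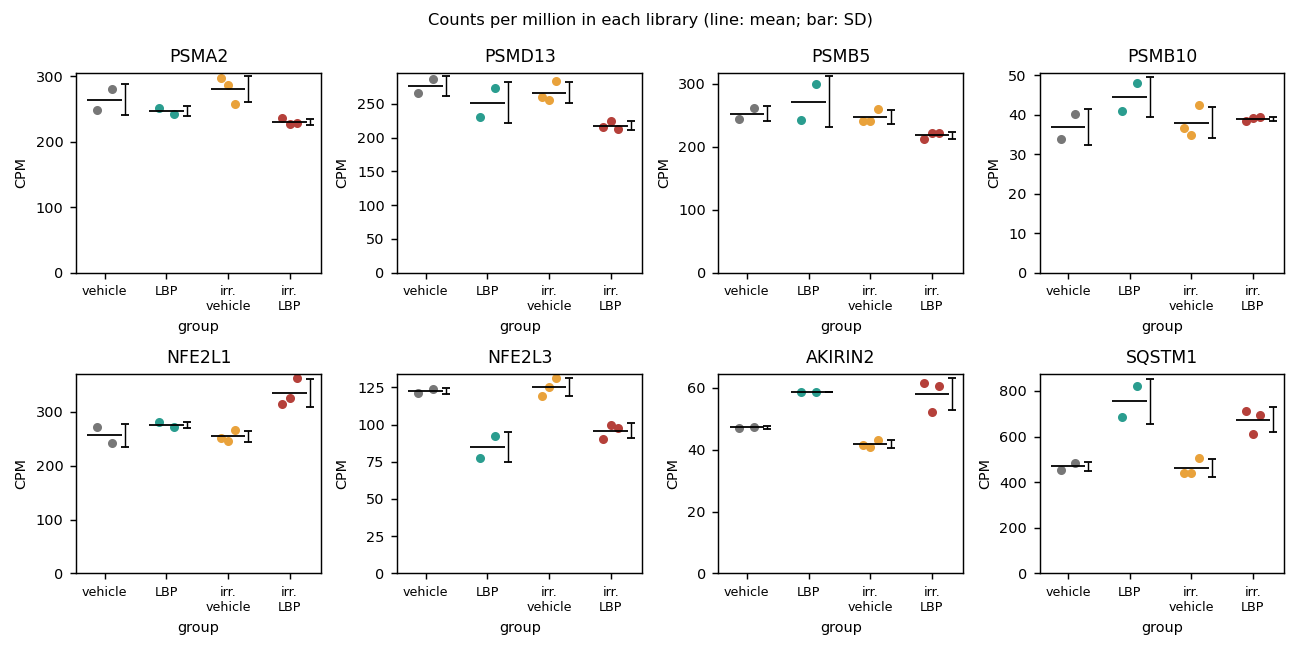
CPM in each library of PSMA2, PSMD13, PSMB5, PSMB10, NFE2L1, NFE2L3, AKIRIN2 and SQSTM1 by group, with axes from 0, lines at group means and bars for the SD. PSMA2 and PSMD13 have lower points in the irradiated LBP than in the irradiated vehicle libraries, with means of 281 and 231 and of 267 and 217 CPM, while NFE2L1 lies at 254 and 334 in the irradiated groups.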

How the data were processed

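The authors deposited whole-number counts per gene and, for the same genes, FPKM values, by name scaled by gene length and library size. For some genes these did not follow the counts by a fixed length. The submitters' processing notes name HISAT2 and GRCh38; how reads were counted (tool, strand, annotation) is not given in the sources used here. Of counts from 1 to 10, 59.7% were even, so both mates of some read pairs may have been counted and depth in fragments may be lower than printed. Groups came from the labels, and 0 columns belonged to other samples. The 46 genes, the gene lists and the naming rule were chosen with earlier results of these data known.

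The test was that of edgeR 4.0.16, run in R 4.3.3 (filterByExpr, minimum count 10; TMM; glmQLFit and glmQLFTest, 1 mean per group over all 10 libraries, 6 residual and 6.06 prior degrees of freedom). Benjamini-Hochberg adjustment covered 14799 features, and an adjusted p under 0.05 made a call. CPM are TMM-scaled, ± after a log2 fold change is an SE, and intervals are at 95%. On simulated data for LBP in irradiated cells with 14799 genes, 24% of genes changed 1.25-fold and 98% of those changed 2-fold were called. For 12 Gy without LBP these were 10% and 95%, and for 12 Gy after LBP 13% and 97%. LBP in non-irradiated cells had the lowest, 6% and 92%. Changes were put into a small part of the genes, none of low abundance.

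Given by library, in all 10 or in the groups compared, were called genes, the gene of each subcomplex with the largest averaged LBP or 12 Gy effect, its highest and lowest by FPKM, and the catalytic pairs; other genes named were chosen after their values were seen. Positions come from GENCODE v29. Alternatives were DESeq2 1.42.0, other scalings, no filter, only the groups compared, a replicate block, limma 3.58.1 on log2(FPKM + 1) or log2(FPKM + 0.1), and each library left out. Same-numbered libraries were not treated as paired, since the labels do not say that they belong together. Only 2 of 13 such pairs had deviations correlated above 0.1, which does not exclude pairing.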

Additional observations from a re-analysis of the deposited data

How the results depend on the processing

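None of the log2 fold changes of the named genes that was called changed sign under any alternative run. With LBP in irradiated cells, 2 of the 46 genes were called (4.36% of all features). The count was 6 with DESeq2 (9.61% of the features it tested), 1 with only the groups compared (2.87%) and 0 with limma on log2(FPKM + 0.1) (2.05%). It was 0 to 1 with each library left out in turn (1.19% to 4.89%). Without irradiated LBP replicate 2 the 1 gene called was PSMD12, and PSMA2 and PSMD13 were both lost. With 12 Gy after LBP the count was 0, and 3 with DESeq2 (1.69%). With LBP averaged over radiation states it was 1 (6.93%), then 4 with DESeq2 (11%), 3 with library totals only (6.9%) and 2 with limma at either pseudocount (3.82% and 3.97%). With a library left out it was 0 to 2 (2.03% to 7.73%). There the 1 gene called was PSMA2 without irradiated vehicle replicate 3 and PSMB2 without irradiated LBP replicate 2. The replicate block called 3 genes with LBP in irradiated cells (PSMA2, PSMC6 and PSMD13; 5.49% of all features), 1 with LBP averaged (8.03%) and 0 in the other 5 comparisons. The labels do not say whether same-numbered libraries belong together. Correlations of same-numbered deviations ran from -0.29 to 0.23. They cannot settle it, since in a group of 2 libraries the deviations mirror each other. The block is therefore only another fit. In the other 4 comparisons every alternative called 0. Where no cause is named, the cause was not tested. With 2 or 3 libraries per group, small fold changes were mostly beyond the reach of the test.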

Other observations

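Of the proteasome genes outside the 46, PAAF1, which binds the 19S ATPases, had a log2 fold change of 0.23 ± 0.09 with LBP in irradiated cells (edgeR adjusted p 0.16). TXNL1, a thioredoxin bound to the 19S lid, had -0.25 ± 0.09 (edgeR adjusted p 0.12), and the ubiquitin receptor ADRM1 had -0.13 ± 0.09 (edgeR adjusted p 0.42). Neither PAAF1 nor TXNL1 overlapped between the irradiated groups, as was so for 27.5% of all features. Of the shuttles, RAD23B had -0.15 ± 0.05 and UBQLN1 -0.14 ± 0.06, while ZFAND5, which activates the proteasome, had 0.21 ± 0.07 (edgeR adjusted p 0.15, 0.19 and 0.10).

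By position, the 46 genes lie on 18 chromosomes, and 27 of them overlap another annotated gene, 13 on the same strand and 23 on the opposite one. PSMB8 (chr6:32840717-32844703, minus strand) and PSMB9 (chr6:32844136-32859585, plus strand) overlap each other, and PSMB9 also overlaps TAP1, so their counts depend on a strand setting that is not given in the sources used here.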
